A study of Homo sapiens with 2 samples.

Results

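The zinc finger genes of chromosome 19 were described in the human renal cell carcinoma line ACHN. Members were all listed genes on chromosome 19 whose symbol was ZNF followed by a number, with or without a closing letter. The rule gave 123 of 12014 listed genes, and it used no measured value. Of the remaining listed genes, 209 had a symbol of the same pattern on other chromosomes and 657 lay on chromosome 19 without such a symbol.

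Expression was measured by RNA sequencing of polyadenylated RNA in 2 libraries. The library here called shKIAA1429 came from ACHN cells labelled as a KIAA1429 knockout and carrying, per the study's methods, a lentiviral short hairpin RNA against KIAA1429. The library called shNC came from ACHN cells labelled as the negative control and carrying a control hairpin. Both lines were selected as stable lines with puromycin, and the 2 hairpins made against KIAA1429 are not told apart in the labels.

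With 1 library per group there was no replicate check, and no test, standard error or p-value can be given for any difference below. KIAA1429, also named VIRMA, is a large scaffold subunit of the complex that writes N6-methyladenosine on mRNA. Its gene was listed at 3.92 FPKM (fragments per kilobase of transcript, scaled to the fragments of the library) in shNC and 3.22 FPKM in shKIAA1429, so 82.1% of the control level was left in the library labelled as a knockout. The difference, on the log2 scale of (FPKM + 1), was -0.22, and -0.10 when both libraries were rescaled to the same sum. The comparison asks how the family differed between these libraries. In shNC 42.2% of all FPKM came from mitochondrial genes and in shKIAA1429 34.6%. With both libraries rescaled without those genes, 79 of the 123 members (64.2%) were higher in shKIAA1429, as many as without rescaling, beside 57.6% of all listed genes. Rescaled to the same sum with those genes kept, 95 members (77.2%) were higher, beside 73.5% of all listed genes. Of 10 markers of renal epithelium and renal carcinoma lines 9 were listed, 4 of them higher and 5 lower in shKIAA1429, and CDH6 was not listed. Their summed levels were 772 and 691 FPKM, and 404 and 463 FPKM without VIM. No listed gene was among the leukocyte, endothelial, hepatocyte or lung markers looked for, and the 2 fibroblast markers, COL1A1 and PDGFRB, summed to 1.75 FPKM in shNC and 2.60 FPKM in shKIAA1429.

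Most genes of this family encode DNA-binding proteins made of a row of zinc fingers, each a short loop held by a pair of cysteines and a pair of histidines around a zinc ion. Many of them also carry a Krüppel-associated box (KRAB) near the amino end. The KRAB box recruits TRIM28, also called KAP1, which brings the histone methyltransferase SETDB1 and heterochromatin proteins to the bound site. The family grew by tandem duplication, which left the genes in dense clusters, and many members bind and silence transposable elements. Neighbouring members are therefore often similar in sequence, and short reads may match more than 1 of them.

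The repeated unit of the family is shown for 3 pairs of members, from the first cysteine of a finger to the residue before the first cysteine of the next. ZNF579 and ZNF581 lie in the same cluster and had the highest and the lowest change of all members, ZNF224 and ZNF227 lie in another cluster and differed in direction, and ZNF587 and ZNF417 are a pair of close copies. Each unit is given on the coding strand from GENCODE 29 on GRCh38 and lies in the last exon of its transcript. Capitals mark the bases that code for the linker between fingers.
ZNF579, finger 1 of 8, chr19:55579421-55579504, minus strand, exon 2 of 2: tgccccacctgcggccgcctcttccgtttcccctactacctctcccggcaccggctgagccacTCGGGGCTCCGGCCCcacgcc
ZNF581, finger 1 of 4, chr19:55644836-55644919, plus strand, exon 2 of 2: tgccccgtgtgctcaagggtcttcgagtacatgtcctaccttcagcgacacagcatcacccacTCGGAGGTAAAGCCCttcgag
ZNF224, finger 2 of 18, chr19:44106776-44106859, plus strand, exon 6 of 6: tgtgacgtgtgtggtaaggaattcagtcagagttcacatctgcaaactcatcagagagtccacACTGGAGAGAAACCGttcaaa
ZNF227, finger 2 of 18, chr19:44235406-44235489, plus strand, exon 6 of 6: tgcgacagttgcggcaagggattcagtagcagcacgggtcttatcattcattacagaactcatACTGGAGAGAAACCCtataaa
ZNF587, finger 2 of 13, chr19:57859136-57859219, plus strand, exon 3 of 3: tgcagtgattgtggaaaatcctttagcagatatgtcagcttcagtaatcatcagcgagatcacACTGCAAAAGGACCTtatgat
ZNF417, finger 2 of 12, chr19:57909471-57909554, minus strand, exon 3 of 3: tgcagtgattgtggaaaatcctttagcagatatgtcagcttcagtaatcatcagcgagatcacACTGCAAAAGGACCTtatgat

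The units of ZNF587 and ZNF417 were the same in 84 of 84 bases. Those of ZNF224 and ZNF227 shared 55 of 84 bases and 14 of the 15 linker bases, and those of ZNF579 and ZNF581 shared 48 of 84 bases and 10 of the 15. The most frequent opening of the linker was ACTGGAGAGAAACC, found in 224 of 1224 such units of the members. Searched on the coding strand of the longest coding sequence only, it occurred 240 times in the members. It was held by 60 of the 123 members (48.8%) and by 125 of 11887 listed genes with a transcript (1.05%). It stands in the printed units of ZNF224 and ZNF227, which were chosen because they hold it, and not in the other 4. The 14 linker bases shared by ZNF224 and ZNF227 were therefore fixed by the choice. Over 18 fingers each, ZNF224 held this opening 1 time and ZNF227 3 times. Of the 65 genes outside the family that held it, 53 were ZNF genes of other chromosomes. The members' longest coding sequences held 1483 matches to the finger pattern, with a median of 12 per gene and 31 in ZNF91, and 1451 of them (97.8%) lay in the last coding exon. ZNF738 held no match.

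The members were expressed at low levels, and the family as a whole differed little between the libraries. The median member was at 1.01 FPKM in shNC and 1.25 FPKM in shKIAA1429, beside medians of 4.83 and 5.15 FPKM over all listed genes. In shNC 61 members were below 1 FPKM and in shKIAA1429 49. A mean of at least 1 FPKM was reached by 67 members (54.5%), compared with 89.1% of all listed genes. The members summed to 269 FPKM in shNC and 262 FPKM in shKIAA1429, where all listed genes summed to 283046 and 249409 FPKM. In bulk RNA, fewer cells expressing a gene and less RNA per cell cannot be told apart.

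Differences are given as the log2 of (FPKM + 1) in shKIAA1429 over (FPKM + 1) in shNC, a scale that understates differences of genes below 1 FPKM. The members' median difference was 0.09, with quartiles of -0.06 and 0.30 and a range from -0.94 to 1.40. Over all listed genes the median was 0.06. Higher values in shKIAA1429 were found for 79 of 123 members (64.2%), against 57.2% of all listed genes. By more than 0.5, 10 members were higher (8.13%, background 10.1%) and 8 were lower (6.50%, background 6.22%). No member passed 1.5 in either direction, where the background was 0.35% higher and 0.241% lower. The other 105 members lay within 0.5. Both shares past 0.5 were near the background.

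**Figure D1:**
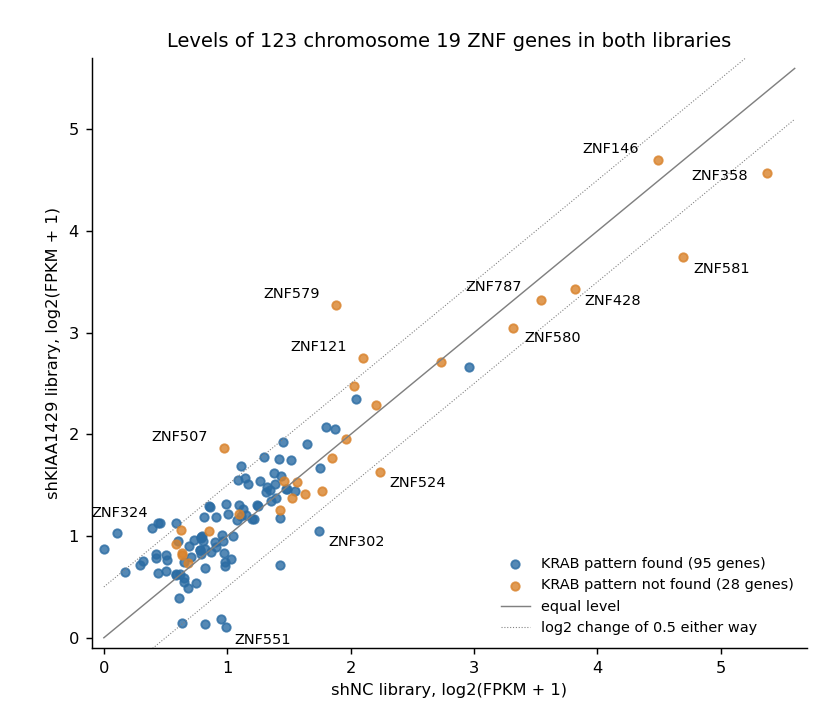
Level of each of the 123 members in shNC (x axis) and shKIAA1429 (y axis), both as log2(FPKM + 1), with 1 point per gene coloured by whether the broader KRAB pattern was found. Most points lie within 0.5 of the line of equal level, and 8 of the 9 members with a mean of at least 5 FPKM lack the pattern.

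ZNF genes of other chromosomes had a median difference of 0.17, and 67.0% of them were higher in shKIAA1429. The other listed genes of chromosome 19 had a median of -0.05, and 44.0% were higher. The members' median thus lay between those of the ZNF genes elsewhere and of the other genes of chromosome 19. Transcripts of those other genes had a median GC content of 60.8%, compared with 43.0% for the members. Among other genes with a mean between 0.721 and 1.81 FPKM, the quartiles of the members' means, the median was 0.04 over 1747 genes and 56.0% were higher.

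**Figure D2:**
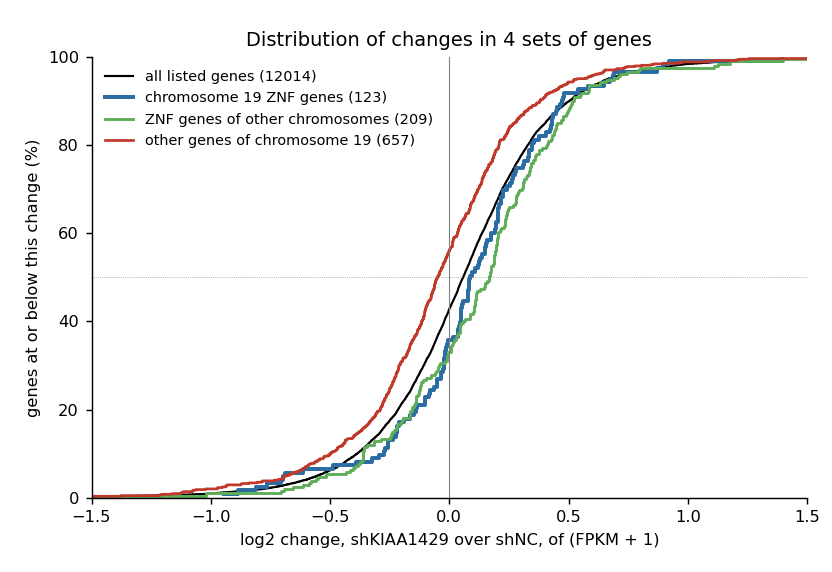
Cumulative share of genes (%, y axis) at or below each log2 difference of (FPKM + 1), shKIAA1429 over shNC (x axis), for the 123 members, the 209 ZNF genes of other chromosomes, the 657 other genes of chromosome 19 and all 12014 listed genes. The medians were 0.09, 0.17, -0.05 and 0.06.

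The most abundant members were few and mostly lacked a KRAB match. ZNF358 was at 40.6 FPKM in shNC and 22.7 FPKM in shKIAA1429, ZNF581 at 24.9 and 12.4 FPKM, and ZNF428 at 13.2 and 9.80 FPKM. ZNF146, a protein made up of zinc fingers alone, was at 21.5 and 24.9 FPKM and was the most abundant member in shKIAA1429. ZNF787 was at 10.7 and 9.02 FPKM, ZNF580 at 8.98 and 7.27 FPKM, and ZNF865 at 5.65 and 5.54 FPKM. ZNF317, the 1 gene with a KRAB match among the 9 members with a mean of at least 5 FPKM, was at 6.78 FPKM and 5.33 FPKM. Of these 9 members, 7 were lower in shKIAA1429, of which ZNF865 turned higher (0.15) when both libraries were rescaled to the same sum, and ZNF146 and ZNF579 were higher.

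ZNF579 had the highest difference of the family. It was at 2.68 FPKM in shNC and 8.67 FPKM in shKIAA1429, a log2 difference of 1.40. ZNF507 was at 0.962 and 2.65 FPKM (0.90) and ZNF121 at 3.28 and 5.72 FPKM (0.65), and neither shared a 150-base stretch of transcript with another gene. ZNF567 was at 1.16 and 2.23 FPKM, a difference of 0.58. These 4 were the members with a mean of at least 1 FPKM that were higher by more than 0.5.

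The other 6 members past 0.5 upward were low in shNC, and all but ZNF284 and ZNF557 were named after their values were seen. ZNF284 was listed at 0 in shNC and at 0.828 FPKM in shKIAA1429 (0.87), and 41.9% of its 150-base windows were shared with another gene. ZNF324 was at 0.0747 and 1.04 FPKM (0.92), ZNF17 at 0.313 and 1.12 FPKM (0.69), and ZNF557 at 0.357 and 1.18 FPKM (0.68). ZNF8 was at 0.369 and 1.18 FPKM (0.67) and ZNF529 at 0.502 and 1.18 FPKM (0.54). Their levels thus ran from 0 to 0.502 FPKM in shNC and from 0.828 to 1.18 FPKM in shKIAA1429. Since genes at or below 0.5 FPKM in both libraries are not listed, 5 of these 6 were listed only through their level in shKIAA1429, and their direction is fixed by that.

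Lower values by more than 0.5 were found in 8 members, of which 5 had a mean of at least 1 FPKM. ZNF581 differed by -0.94 and ZNF358 by -0.81, at the levels given above. ZNF227 was at 1.69 and 0.646 FPKM (-0.71), ZNF302 at 2.35 and 1.06 FPKM (-0.70), and ZNF524 at 3.71 and 2.09 FPKM (-0.61). The other 3, of which ZNF551 and ZNF548 were named after their values were seen, were below 1 FPKM in shNC and near 0.1 FPKM in shKIAA1429. ZNF551 was at 0.983 and 0.0736 FPKM (-0.89), ZNF841 at 0.931 and 0.136 FPKM (-0.76), and ZNF548 at 0.766 and 0.0963 FPKM (-0.69). These 3 were listed only through their level in shNC.

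The low members depend on the constant added before the logarithm. With 0.1 in place of 1, 31 of 123 members were higher by more than 0.5 (background 15.6%). By more than 1.5, 5 were higher (background 1.76%) and 4 were lower (background 1.09%). The 5 were ZNF284 (3.21), ZNF324 (2.70), ZNF579 (1.66), ZNF17 (1.56) and ZNF611 (1.55). The 4 were ZNF551 (-2.64), ZNF548 (-2.14), ZNF841 (-2.13) and ZNF30 (-1.65). ZNF579 was the 1 gene among these 9 above 1.12 FPKM in either library. Past 0.5 downward there were 11 members (background 10.2%). Genes are listed only above 0.5 FPKM in at least 1 library, and 8 of the 9 members past 1.5 were at or below 0.5 FPKM in the other, so they were listed only through the library where they were high. Of all members, 16 were at or below 0.5 FPKM in shNC and 8 in shKIAA1429, so their direction was fixed by the listing. The backgrounds come from all listed genes, whose median level was higher than that of the members.

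Some members have a known role, and all of those given here except ZNF224 were named after their values were seen. ZNF91, which represses SVA transposable elements, was at 1.37 FPKM in shNC and 1.46 FPKM in shKIAA1429, a difference of 0.06. ZNF587 and ZNF417, which bind endogenous retroviruses, differed by 0.24 and -0.03. ZNF274, which brings SETDB1 to zinc finger genes themselves, was at 2.13 and 2.76 FPKM (0.26). ZNF350, also called ZBRK1, a repressor that works with BRCA1, was at 1.25 and 1.86 FPKM (0.35), and ZNF473, a factor in histone pre-mRNA processing, at 1.13 and 1.33 FPKM (0.13). ZNF224, a KRAB repressor that partners with the Wilms tumour protein, was at 1.21 and 1.98 FPKM (0.43), and was among the 10 highest members with a mean of at least 1 FPKM.

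Sorted by position, 103 members fell into 7 clusters of at least 5 listed members with gaps of at most 1 Mb, and 66 of the 103 were higher in shKIAA1429. The clusters are numbered here from the short-arm end. Positions of genes are those of the deposited files, which match GRCh37.

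Clusters 2 to 6 had medians above 0. Once the trend with GC content described further on was removed, their medians were 0.04, -0.01, 0.06, 0.09 and 0.004. Cluster 2 (11.59 to 12.74 Mb) had a median difference of 0.20 with 7 of 8 members higher, from ZNF443 (-0.21) to ZNF791 (1.46 and 2.43 FPKM, 0.48). In cluster 3 (21.20 to 22.03 Mb), where no other listed gene lay inside, the median was 0.23 with 6 of 7 members higher, from ZNF429 (-0.02, and 0.11 with rescaled sums) to ZNF431 (0.343 and 0.717 FPKM, 0.35). Cluster 4 (36.71 to 38.21 Mb) had a median of 0.20 with 7 of 9 higher, from ZNF461 (-0.14) to ZNF567 (0.58), and ZNF260 in it was at 3.08 and 4.58 FPKM (0.45). Cluster 5 (44.10 to 45.58 Mb) had a median of 0.13 with 12 of 15 higher. It held ZNF284 and ZNF45 (1.12 and 1.93 FPKM, 0.46) as well as ZNF227, the 1 member of the cluster past -0.5. Cluster 6 (52.07 to 53.96 Mb) had a median of 0.16 with 15 of 17 higher, from ZNF841 to ZNF611 (0.127 and 0.564 FPKM, 0.47). In cluster 2 the directions of ZNF136 and ZNF443 were fixed by the listing, each being at or below 0.5 FPKM in 1 library. So were those of ZNF430, ZNF431 and ZNF738 in cluster 3, ZNF566 in cluster 4 and ZNF284 in cluster 5. In cluster 6 the same held for ZNF841, ZNF611, ZNF613, ZNF432 and ZNF765.

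Clusters 1 and 7 had medians below 0, and with the trend with GC content removed their medians were -0.15 and -0.06. Cluster 1 (7.07 to 9.79 Mb) had a median of -0.19 with 4 of 9 higher, from ZNF358 to ZNF557, which became 0.12 without the members that share sequence windows, and its 28 other listed genes had a median of -0.00. Cluster 7 (55.99 to 58.99 Mb), next to the long-arm end, was the largest. Its median was -0.02 over 38 members, with 15 higher and 23 lower, and became 0.13 with rescaled sums, where the median of all listed genes was 0.24. It held ZNF579, ZNF17, ZNF8 and ZNF324 past 0.5 upward and ZNF581, ZNF551, ZNF548 and ZNF524 past 0.5 downward. With gaps of at most 0.5 Mb it split into 10 members at 55.99 to 57.14 Mb, with a median of -0.25 and 3 higher, and 28 members at 57.70 to 58.99 Mb, with a median of -0.01 and 12 higher. Other listed genes inside clusters 2, 4, 5, 6 and 7 numbered 2, 3, 14, 1 and 11, with medians of -0.42, 0.04, 0.06, -0.07 and 0.06. In cluster 1 the directions of ZNF557 and ZNF559 were fixed by the listing. In cluster 7 those of ZNF17, ZNF8, ZNF324, ZNF419, ZNF548, ZNF550 and ZNF551 were.

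**Figure D3:**
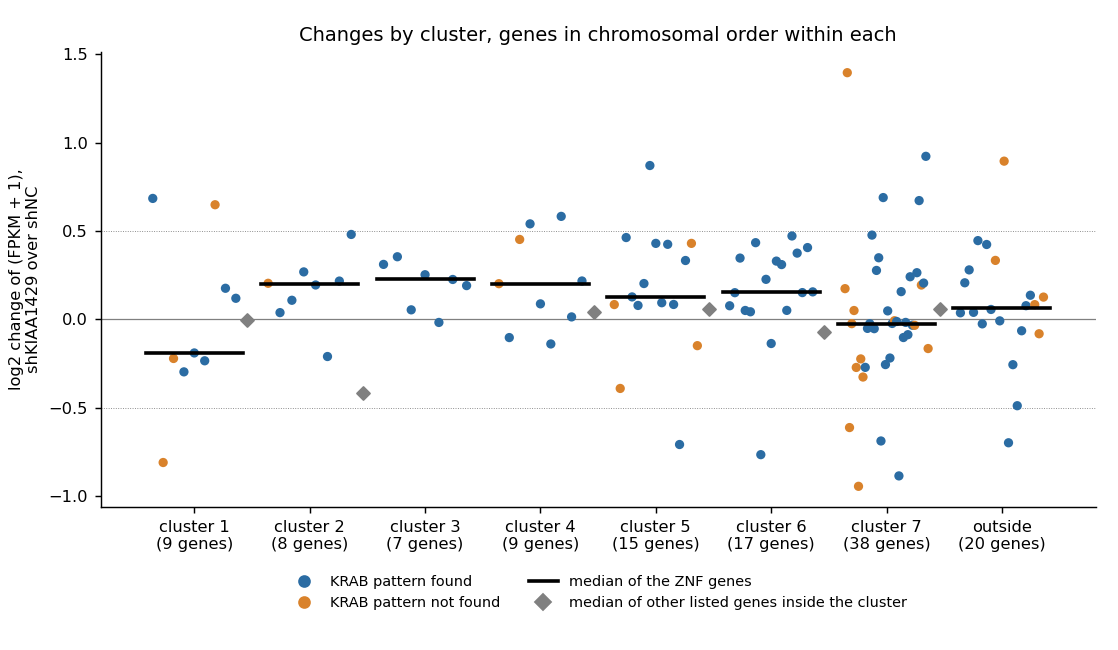
Log2 difference of (FPKM + 1), shKIAA1429 over shNC, of each member, in chromosomal order within the 7 clusters and for the 20 members outside them. Black bars are medians of the members, which run from -0.19 in cluster 1 to 0.23 in cluster 3, and grey diamonds are medians of the other listed genes inside a cluster.

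Outside the clusters lay 20 members in 8 runs, with a median of 0.07 and 13 higher. Of these runs 2 are given here, picked after their values were seen. The 4 members at 35.17 to 35.45 Mb, ZNF302, ZNF181, ZNF30 and ZNF792, were all lower, with a median of -0.37. ZNF30 (0.555 and 0.109 FPKM) was listed only through shNC, and ZNF792 differed by -0.06. ZNF724, ZNF91, ZNF675 and ZNF254 at 23.40 to 24.31 Mb had a median of 0.20, and ZNF724 (0.222 FPKM in shNC) was listed only through shKIAA1429. Of 96 pairs of neighbours within the clusters, 60 (62.5%) differed in the same direction, and over all 7503 pairs of members 4027 (53.7%) did. The second share also counts pairs from different clusters, whose shares of higher members differed. It is therefore no measure of whether adjacent members differ alike.

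The family divides by the KRAB box. A fixed residue pattern found it in the longest coding sequence of 76 members, whose median difference was 0.14 with 52 higher, and not in 47, whose median was 0.08 with 27 higher. A broader pattern, chosen after seeing the data because the first missed known KRAB genes, and searched in any coding transcript, found it in 95 members. Their median was 0.12 with 65 higher (68.4%, background 57.2%), 7 past 0.5 upward (7.37%, background 10.1%) and 5 downward (5.26%, background 6.22%). The 28 members without it had a median of 0.02 with 14 higher (50%), 3 past 0.5 upward (10.7%) and 3 downward (10.7%). The members without the pattern were more abundant, with a median of 2.51 FPKM in shNC compared with 0.946 FPKM. Their transcripts also had a higher median GC content, 61.1% compared with 42.4%. The pattern is a match of residues and not a domain annotation.

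The members' differences ran with GC content, as those of all listed genes did. Over the 123 members, Spearman's rho between the difference and the GC content of the transcript was -0.30, and over 11887 listed genes it was -0.28. The points come from the same 2 libraries, so rho is given as a description with no p. With the listed genes divided into 3 equal groups at GC contents of 44.1% and 54.2%, a division chosen after seeing the data, 70 members fell into the low group. Of these 56 (80.0%) were higher in shKIAA1429, compared with 73.7% of all listed genes of that group, and the medians were 0.17 and 0.18. In the middle group 15 of 33 members (45.5%) were higher, compared with 52.3% of all listed genes. In the high group 8 of 20 members (40.0%) were higher, compared with 45.4%, and the medians were -0.11 and -0.03. After the trend with GC content over all listed genes was removed, the members' median was -0.03 and 46.3% were higher, compared with a median of 0 and 49.4% over all listed genes, so the family's median changed its sign.

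**Figure D4:**
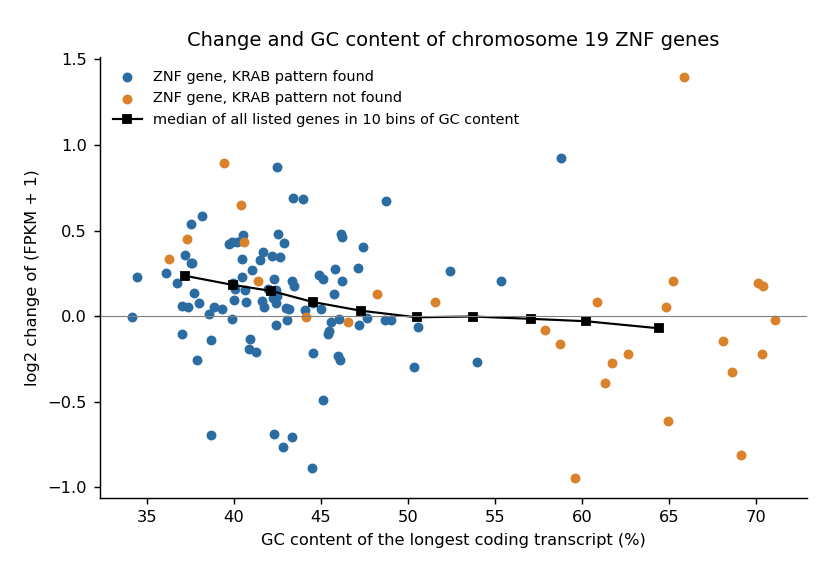
Log2 difference of (FPKM + 1), shKIAA1429 over shNC, against the GC content (%) of the transcript for the members, with the median of all listed genes in bins of GC content. The medians of all listed genes run from 0.24 in the lowest bin to -0.07 in the highest, and the members lie around the same trend.

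The difference also ran with transcript length. Transcript length had a rho of 0.30 over the members and 0.18 over all listed genes with a transcript, finger number had 0.12 over the members, and mean FPKM had -0.08. The part of GC content and that of length were not told apart.

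Reads of several members could be divided with other genes. No 150-base window of the transcript was found in another gene for 90 members, and at least 5% of windows were shared for 23. The largest shares were those of ZNF564 (80.6%), ZNF223 (60.2%), ZNF724 (51.2%), ZNF284 (41.9%), ZNF446 (33.7%) and ZNF324 (27.0%). ZNF417 shared 18.4% of its windows with other genes, ZNF587 among them. The 100 members below 5% had a median difference of 0.08 with 65 higher, and the other 23 had a median of 0.20 with 14 higher.

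On the same strand, 12 members overlapped another listed gene, and some of the largest differences were among them. ZNF841 and ZNF432 overlap, ZNF841 being 0.76 lower and ZNF432 (0.245 and 0.683 FPKM) 0.43 higher, and their sum went from 1.18 FPKM to 0.819 FPKM, a difference of -0.26. ZNF324 and ZNF446 together were at 1.76 and 2.43 FPKM (0.31), whereas ZNF446 alone differed by -0.16. ZNF8 and AC020915.2 differed by 0.67 and -0.81, and their sum by -0.10. For ZNF581, summed with ZNF580 and CCDC106, the levels were 40.7 and 23.9 FPKM (-0.74), and for ZNF358 summed with AC008878.1 they were 41.7 and 23.9 FPKM (-0.78). In the first 3 groups the genes differed in opposite directions and the sum differed by less than its most divergent gene. In the last 2 the sum remained past -0.5. ZNF581 made up 24.9 of the 40.7 FPKM in shNC and ZNF358 40.6 of the 41.7 FPKM, so these sums are no separate check. ZNF653 differed by 0.20 and its sum with ECSIT by -0.75. ZNF547 differed by 0.35 and its sum with AC003002.1 by 0.54, and the sum of ZNF586 and ZNF587B differed by -0.11. The 111 members without such an overlap had a median of 0.09 with 74 higher, and the 12 with one had a median of -0.09 with 5 higher.

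The proteins through which KRAB boxes act were described by 24 genes of a list of which 1 gene is not reported here, and all 24 were listed. None passed 0.5 in either direction (background 10.1% higher and 6.22% lower). With rescaled sums 8 were higher by more than 0.5, where the share of all listed genes was 24.8%. Without rescaling, the 24 genes had a median difference of 0.13, beside 0.06 over all listed genes. Higher values were found for 16 of 24 (66.7%), beside 57.2% of all listed genes. TRIM28, the corepressor that KRAB boxes bind, was at 37.3 FPKM in shNC and 28.5 FPKM in shKIAA1429, a difference of -0.38, and of -0.20 with rescaled sums. SETDB1, the histone methyltransferase, was at 4.74 and 5.21 FPKM (0.11, and 0.30 with rescaled sums), and ATF7IP, its stabilising partner, differed by 0.36.

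The other genes of the list were named after their values were seen. UHRF1, which helps maintain DNA methylation, had the highest difference of the 24 at 5.85 and 8.56 FPKM (0.48), and the maintenance methyltransferase DNMT1 differed by 0.37. The de novo methyltransferases DNMT3A and DNMT3B differed by -0.27 and 0.29. The heterochromatin proteins CBX5, CBX3 and CBX1 differed by 0.33, 0.31 and 0.15. MPHOSPH8 and PPHLN1, subunits of the HUSH silencing complex, each differed by 0.41, the third subunit FAM208A by 0.15, and MORC2, which works with the complex, by -0.11. The NuRD remodellers CHD4 and CHD3 differed by -0.29 and 0.04.

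**Figure D5:**
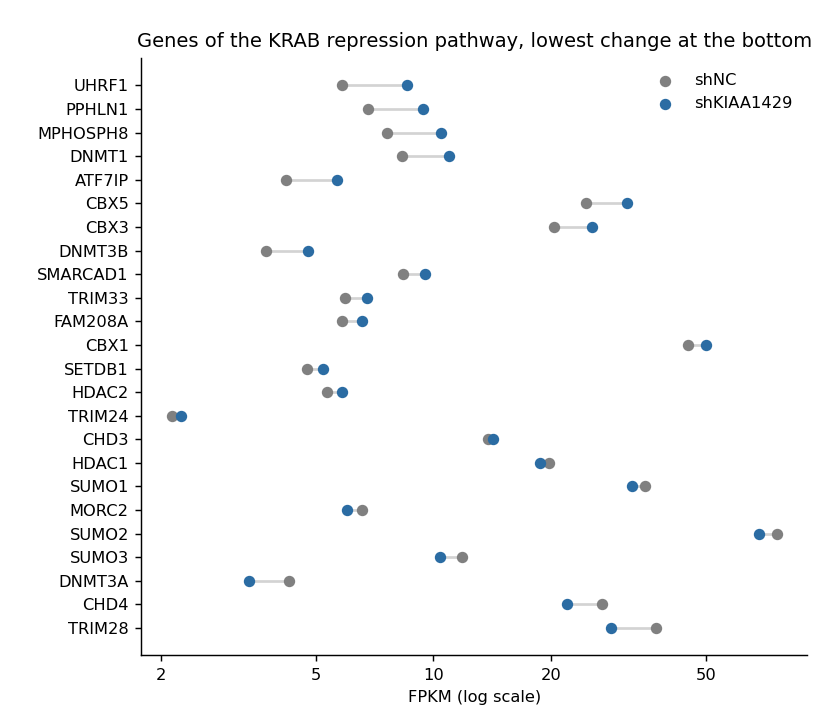
FPKM (log scale) of 24 genes of the KRAB repression pathway in shNC (grey) and shKIAA1429 (blue), ordered by log2 difference of (FPKM + 1). The differences run from -0.38 for TRIM28 to 0.48 for UHRF1.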

How the data were processed

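Polyadenylated RNA of 2 ACHN libraries was sequenced. The authors deposited FPKM per gene, a level relative to transcript length and to the fragments of the library. The submitters' processing notes name cutadapt 1.9, HISAT2 2.0.4, StringTie 1.3.4d, DESeq2 and edgeR, with no role or order. The genome build is not given in the sources used here, and the gene positions and identifiers match GRCh37. Both files list the same 12014 protein-coding genes, with no gene at 0.5 FPKM or less in both. Low values showed no steps of whole reads, so the depth of either library is unknown and no counting interval was computed.

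The difference was the log2 of (FPKM + 1), shKIAA1429 over shNC, over all listed genes with no filter (Python 3.11.15, pandas 2.3.3). With 1 library per group no test was run, and limits of 0.5 and 1.5 on the log2 scale stand in for calls. The calculation was tested on simulated data, in which only genes with a mean of at least 5 FPKM were changed. It used the limit of 1.5, so it says nothing about the limit of 0.5 or about changes of members at lower levels. GC content, finger and KRAB patterns, the linker motif (searched in the longest coding sequence) and shared windows of 150 bases came from GENCODE 29 transcripts on GRCh38 (Biopython 1.88). Genes were matched by Ensembl gene identifier, for 123 of 123 members and 11887 listed genes. Residues were searched in translated coding sequences, since no protein table was used here.

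The named genes were members past 1.5, the 10 highest and 10 lowest with a mean of at least 1 FPKM, the 10 most abundant, and the extremes of each cluster, with KRAB pathway genes past 0.5, TRIM28, SETDB1 and KIAA1429. Members named for sequence shares, overlaps, known roles or a place outside the clusters were chosen after their values were seen. The members, lists and limits were chosen with earlier results of these data known. Alternatives were another pseudocount, centring, rescaled sums, filters on the mean, other gaps and leaving out overlapping genes, and, chosen after seeing the data, removal of the GC trend, leaving out members with shared windows and the broader KRAB pattern.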

Additional observations from a re-analysis of the deposited data

How the results depend on the processing

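No paired analysis was possible because each group holds 1 library. The precision is limited by that and by the unknown depth, and 61 members were below 1 FPKM in shNC. The members' median turned below 0 at a mean of at least 5 FPKM and with the GC trend removed, and the medians of clusters 1, 3 and 5 each changed sign under 1 alternative given here. That of cluster 7 did so only with sums of 1000000, where it stayed below the median of all listed genes. With a pseudocount of 0.1, 31 members were past 0.5 upward, 5 past 1.5 upward and 4 downward, the medians of clusters 1, 2, 3 and 6 were -0.32, 0.35, 0.45 and 0.32, and 1 KRAB pathway gene was past 0.5 upward. Rescaling both libraries to 1000000 moved the median of all listed genes by 0.18, to 0.24. The members' median was then 0.29, with 77.2% higher against 73.5% of all listed genes. Past 0.5 upward there were 38 members (all listed genes 24.8%), and past 1.5 there were 3 upward (all listed genes 1.61%) and 1 downward. Clusters 2 to 7 had medians of 0.47, 0.52, 0.39, 0.33, 0.42 and 0.13, and 8 KRAB pathway genes were past 0.5 upward. Relative to the shifted median, the members' median was 0.05 higher. Rescaled without mitochondrial genes, 30 members were past 0.5 upward (all listed genes 15.2%), 3 past 1.5 upward (all listed genes 1.51%) and 3 downward. Clusters 1, 2, 3 and 6 then had medians of -0.31, 0.35, 0.43 and 0.31, and 1 KRAB pathway gene was past 0.5 upward. For both rescalings, the share of all listed genes past 1.5 downward is not given. With the pseudocount of 0.1 and with both rescalings, the members past 0.5 upward included some listed only through shKIAA1429. Centred on the median of all listed genes, 55.3% of the members were higher. At a mean of at least 1 FPKM, 40 of 67 members were higher, 4 past 0.5 upward and 5 downward, and clusters 1, 3 (1 member), 4 and 6 had medians of -0.051, 0.054, 0.45 and 0.31. At a mean of at least 5 FPKM, 2 of 9 members were higher, with a median of -0.27, 1 past 0.5 upward and 2 downward, and clusters 1, 5 (1 member) and 7 had medians of -0.55, -0.39 and -0.22. Both filters leave fewer genes, and the shares of all listed genes under them are not given. Without same-strand overlaps, 5 members were past 0.5 downward and the median of cluster 1 was -0.035. With the GC trend removed, the members' median was -0.027 and those of clusters 2, 3, 4 and 6 were 0.041, -0.0094, 0.055 and 0.0044. Without members that share windows, 6 were past 0.5 upward and the median of cluster 1 was 0.12. With gaps of 0.5 Mb, the run that keeps the most members of cluster 1 had a median of -0.035. The cause of each other move was not tested.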

Other observations

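Chromosome 19 also carries zinc finger genes with other names, of which 6 were listed, and they were looked at after the members' values were seen. ZFP36, an mRNA-decay factor that binds AU-rich elements and whose fingers are of another kind, was at 23.7 FPKM in shNC and 14.7 FPKM in shKIAA1429, a log2 difference of -0.66. ZBTB7A, a repressor of fetal globin genes, was at 12.2 and 13.6 FPKM (0.15). The KRAB genes ZFP30 and ZFP14, which lie among the members of cluster 4, differed by 0.28 and 0.04. ZSCAN22 differed by 0.09 and ZBTB45 by -0.06. The median of the 6 was 0.07, with 4 higher in shKIAA1429.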
